A study of Mus musculus with 4 samples.

Results

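Iron and metal handling was followed through 8 genes, Mt1, Mt2, Hmox1, Fth1, Ftl1, Slc40a1, Tfrc and Slc11a1, each found as 1 row by its symbol among the 31253 genes of the deposited count matrices. The data were single-cell RNA sequencing of live CD45+ leukocytes sorted from the tumor-bearing hemispheres of mice with CT2a glioma, a mouse glioma line grown in the brain, on day 14 after implantation. There were 4 wild-type mice (WT, C57Bl/6 background) and 4 mice lacking CaMKK2, a calcium-activated kinase, in every cell of the body (CaMKK2 KO, CaMKK2-/-, same background). All 8 mice carried the tumor, and the labels name no other treatment. The 4 mice of a genotype were tagged with hashtag antibodies and run in 1 10X channel, so genotype and channel cannot be told apart. In GRCm38 the genes lie at chr8:94179082-94180327 (Mt1, plus strand), chr8:94172664-94173568 (Mt2, plus), chr8:75093621-75100589 (Hmox1, plus), chr19:9980598-9985098 (Fth1, plus), chr7:45457944-45459884 (Ftl1, minus), chr1:45908068-45926523 (Slc40a1, minus), chr16:32608920-32632794 (Tfrc, plus) and chr1:74375195-74386062 (Slc11a1, plus).

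After demultiplexing and removal of outlying cells and doublets, 5160 WT and 5689 CaMKK2 KO cells remained, with median depths of 12910 and 11676 UMIs (unique molecular identifiers, counts of single RNA molecules) per cell. A mouse contributed 1040 to 1686 cells and 12297488 to 23079873 UMIs. Camkk2 itself was read at 26.9 to 36.7 UMIs of the gene scaled to 1000000 UMIs (CPM) in the WT mice and 12.9 to 22.3 CPM in the CaMKK2 KO mice, so the groups did not overlap; the counts come from the 3′ ends of transcripts, and whether these lie in the deleted part is not given in the sources used here. Cells were put in 16 classes by marker genes, among them 2913 tumor-associated macrophages (TAM), 481 microglia, 2255 classical monocytes, 1331 NK cells, 763 CD8 T cells, 299 other T cells (led by Trdc and Trgc1) and 360 B cells, and 87.5% of gated cells received the same class from unsupervised clusters. Separate check markers were highest in their own class for microglia, non-classical monocytes, mature dendritic cells, plasmacytoid dendritic cells (pDC), NK, T and B cells and basophils and mast cells, but not for TAM (higher in microglia), classical monocytes, neutrophils and the conventional dendritic cells DC1 and DC2. The borders are not sharp: 177 WT and 322 CaMKK2 KO cells had TAM and classical monocyte scores within 0.1 of each other. WT mouse 1 stood apart for several of the genes, most of all the metallothioneins. The genotype tests of Mt1 and Mt2 within classes are given with and without it where the counts allowed, and the tests of the class order include it. Of barcodes kept, 9 occurred in both channels. The 3 endothelial markers summed to 16.9 to 42.0 CPM in WT mice against 47.2 to 58.1 CPM in CaMKK2 KO mice, the 7 tumor and neural markers to 31.5 to 45.4 and 34.1 to 41.6 CPM (Olig2 at 0), and the 4 red cell markers to under 1 CPM in every mouse. Their part in the results was not tested.

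Cells take up transferrin-bound iron through the transferrin receptor (Tfrc) and recover iron from phagocytosed material through the lysosomal transporter Slc11a1, also called Nramp1. Heme oxygenase 1 (Hmox1) opens heme and frees its iron. Free iron is stored in ferritin, a shell of heavy (Fth1) and light (Ftl1) chains, and leaves the cell through ferroportin (Slc40a1). Iron regulatory proteins bind a hairpin, the iron-responsive element, in the untranslated regions of several of these messages and set their translation or stability. Metallothioneins (Mt1, Mt2) are small cysteine-rich proteins that bind zinc and copper, and the metal-sensing factor Mtf1 switches on their genes through metal response elements. Macrophages are the main iron recyclers of the body, and microglia are the resident macrophages of the brain.

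The iron-responsive elements are shown because they are the stretches of message through which iron regulatory proteins act, and the 8 genes differ in having them. A search of 1 GENCODE transcript per gene (GRCm38), written as DNA, for an unpaired C followed by 5 paired bases that close a CAGTGN loop, with at least 3 more pairs below the C, found 7 matches in 4 of the 8 genes and none in Hmox1, Mt1, Mt2 or Slc11a1. Capitals mark the unpaired C and the 6 bases of the loop, and all are written 5′ to 3′ on the strand of the gene.
Fth1, 5′ UTR, chr19:9982733-9982759, plus strand: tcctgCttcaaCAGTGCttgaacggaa
Ftl1, 5′ UTR, chr7:45459780-45459806, minus strand: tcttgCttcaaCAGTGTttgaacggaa
Slc40a1, 5′ UTR, chr1:45925466-45925492, minus strand: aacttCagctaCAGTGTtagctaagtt
Tfrc, 3′ UTR, chr16:32631220-32631246, plus strand: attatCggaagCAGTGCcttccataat
Tfrc, 3′ UTR, chr16:32631599-32631625, plus strand: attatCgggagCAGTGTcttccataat
Tfrc, 3′ UTR, chr16:32631664-32631690, plus strand: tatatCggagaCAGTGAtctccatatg
Tfrc, 3′ UTR, chr16:32631711-32631737, plus strand: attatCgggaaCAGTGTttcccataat
The storage and export genes had 1 match each, before the coding sequence, and Tfrc had 4, after it. By the same pattern 95 of 21877 protein-coding genes (0.434%) held a match in any of their protein-coding transcripts, a looser count than 1 transcript per gene. A match is a description of the letters and was not tested as a site.

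The promoters of the metallothionein genes are shown because Mt1 and Mt2 lie side by side on chromosome 8 and varied together between mice. The sequences are from RefSeq (GRCm38.p6), from 250 bases before to 50 after the start, and capitals mark the core of the metal response element, TGCACNC or TGCGCNC on either strand.
Mt1, chr8:94178839-94179138, plus strand: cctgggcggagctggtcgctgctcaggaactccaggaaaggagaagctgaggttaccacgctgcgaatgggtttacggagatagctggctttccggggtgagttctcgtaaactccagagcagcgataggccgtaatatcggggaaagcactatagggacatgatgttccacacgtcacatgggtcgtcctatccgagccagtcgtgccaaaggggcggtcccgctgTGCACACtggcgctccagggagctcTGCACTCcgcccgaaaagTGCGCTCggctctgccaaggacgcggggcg
Mt2, chr8:94172368-94172667, plus strand: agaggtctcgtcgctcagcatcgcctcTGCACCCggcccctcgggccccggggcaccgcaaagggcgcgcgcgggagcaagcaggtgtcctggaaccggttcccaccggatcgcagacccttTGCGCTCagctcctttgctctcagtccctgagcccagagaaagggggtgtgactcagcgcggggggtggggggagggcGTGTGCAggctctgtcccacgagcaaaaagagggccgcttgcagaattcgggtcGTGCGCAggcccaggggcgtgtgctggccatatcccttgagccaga
Mt1 held 3 cores and Mt2 held 4. Of 32841 promoters of this length, 1.97% held at least 3 and 0.518% at least 4, while 25.7% held at least 1. Tfrc held 2 in 1 of its 2 listed promoters, and no core was found in the promoter windows of Fth1, Ftl1 or Slc11a1.

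The first question was which leukocytes carried each gene, over the 7 classes with at least 10 cells in each of the 8 mice. Neighbouring classes in the order of the mean level were compared within mice by a two-sided exact sign-flip permutation test of log2(CPM + 1), with Benjamini-Hochberg adjustment over 48 comparisons; the order was set from the same levels. With 8 mice the smallest p this test can give is 0.00781, which was 0.0469 after adjustment, and 8 comparisons reached it. The adjusted value depends on how many comparisons reach this p, so the 8 passed as a set. The plot of the level per mouse shows all 8 genes in these classes.

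**Figure D1:**
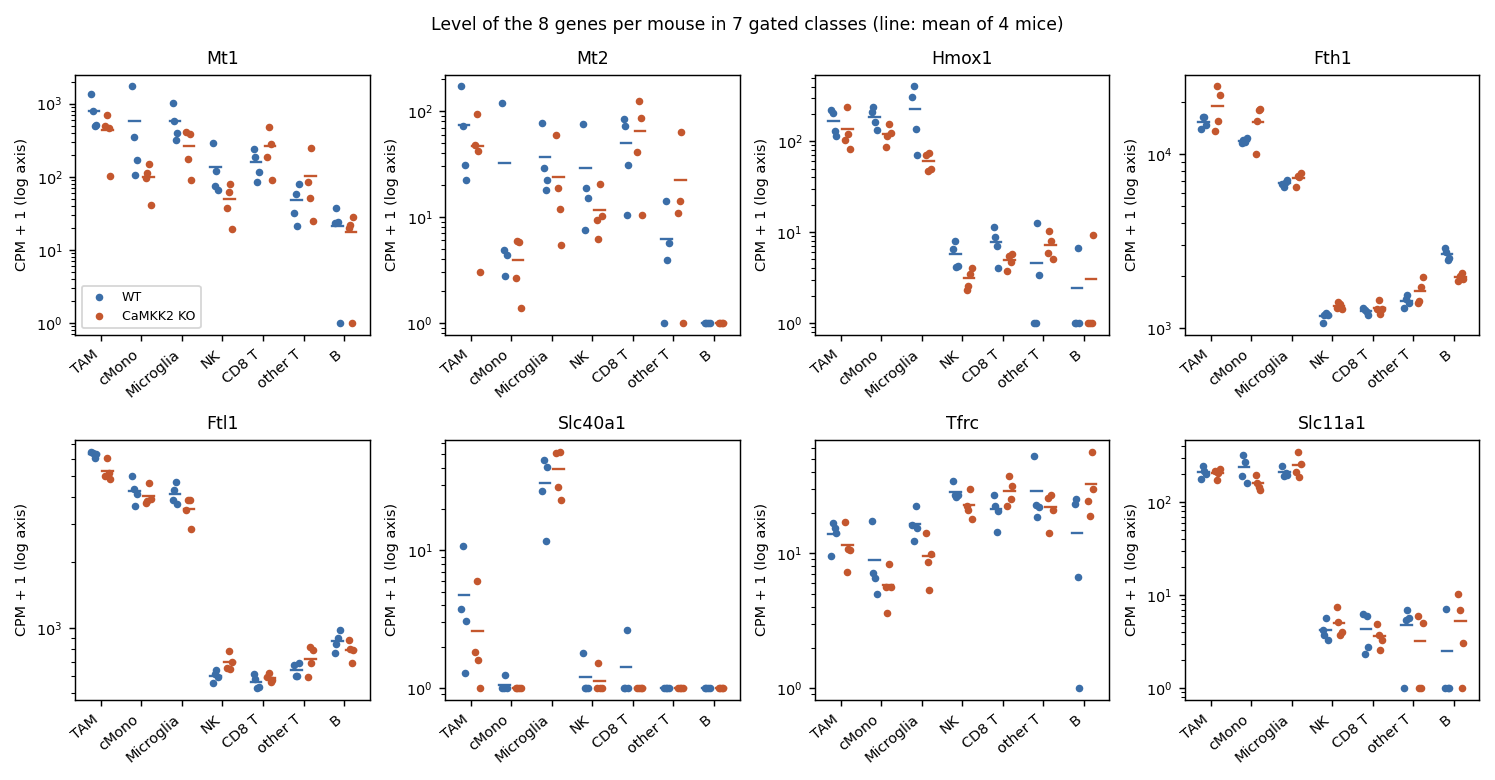
CPM + 1 on a log axis for each of the 8 genes in 7 gated classes (cMono, classical monocytes), with 1 point per mouse, WT in blue and CaMKK2 KO in orange, and lines at the mean of 4 mice. Fth1, Ftl1, Hmox1 and Slc11a1 were high in TAM, microglia and classical monocytes. Slc40a1 stood out in microglia among these classes, and the Tfrc class means lay between 6.36 and 24.7 CPM.

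Ferritin messages were present in nearly every cell, Fth1 in 99.9% and Ftl1 in 98.9% of the 10849 cells kept. Fth1, the chain with ferroxidase activity, ran from 13460 through a median of 15816 to 24458 CPM over the 8 mice in TAM, and its mean there was 17027 ± 3982 CPM (SD, n = 8). Classical monocytes followed at 13642 ± 3098 CPM and microglia at 7021 ± 485 CPM. TAM were above classical monocytes in 7 of 8 mice, a difference that missed the threshold (exact sign-flip test, adjusted p = 0.075), whereas classical monocytes were above microglia in 8 of 8 mice (log2 difference 0.93 ± 0.23 SD, exact adjusted p = 0.0469). Microglia in turn were above B cells, at 2303 ± 392 CPM, in 8 of 8 mice (log2 difference 1.62 ± 0.31 SD, exact adjusted p = 0.0469). Below them the lymphoid classes lay at 1253 to 1524 CPM, and their neighbours did not pass the test.

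Ftl1, the light chain that helps form the mineral core, was also highest in TAM, from 4828 through a median of 6041 to 6463 CPM, with a mean of 5770 ± 663 CPM (SD, n = 8). TAM exceeded classical monocytes, at 4149 ± 470 CPM, in 8 of 8 mice (log2 difference 0.47 ± 0.19 SD, exact adjusted p = 0.0469). Classical monocytes and microglia, the latter at 3831 ± 537 CPM, were not separated beyond their spread (higher in 6 of 8 mice, exact adjusted p = 0.422). The microglial level was above that of B cells, at 830 ± 89.2 CPM, in every mouse (log2 difference 2.20 ± 0.24 SD, exact adjusted p = 0.0469). Microglia thus held an Fth1 level that was lower than that of monocytes in every mouse and an Ftl1 level that was not separated from it. Non-classical monocytes, in 7 mice with at least 10 cells, had 5520 ± 1795 CPM of Fth1 and 5007 ± 812 CPM of Ftl1. Ftl1 shares sequence with the copy Ftl1-ps1, so its counts are uncertain to the extent that reads could be assigned to either; Ftl1-ps1 had 5309 UMIs and Ftl1 558035.

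Slc40a1, which encodes the only known iron exporter, was a rare message, with 428 UMIs in 230 of 10849 cells. Microglia held 243 of these UMIs (56.8%) while making up 4.43% of the cells. Its microglial level was 26.2, 44.5, 10.7 and 39.2 CPM in WT mice 1 to 4 and 50.2, 28.1, 51.2 and 22.2 CPM in CaMKK2 KO mice 1 to 4, so all 8 mice had it and the genotypes overlapped. TAM averaged 2.66 ± 3.31 CPM against 34.0 ± 14.5 CPM in microglia (SD, n = 8), lower in 8 of 8 mice (log2 difference 3.56 ± 1.14 SD, exact sign-flip test, adjusted p = 0.0469). Of the 147 UMIs in TAM, 43 came from 1 cell. The other 5 classes of the order had 0 to 3 UMIs each, and none was seen in the 360 B cells, which allows a level of up to 1.65 CPM from counting alone. After each cell was thinned to 3000 UMIs, 7.98% of WT and 10.7% of CaMKK2 KO microglia had an Slc40a1 UMI, against 0.753% and 0.258% of TAM and no B cell; without thinning the shares were 28.8% and 37.1% of microglia, 2.59% and 0.936% of TAM, at median depths of 12962 and 12801 UMIs in microglia, 17094 and 17265 in TAM, and 3553 and 4990 in B cells. Outside the order, 10 of the 29 cells gated as neutrophils held 19 UMIs, 4.44% of the gene's UMIs in 0.267% of the cells. In WT mouse 2, with 12 of these cells, the level was 131 CPM, above that of microglia in every mouse. The neutrophil levels had no test.

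Tfrc, the uptake receptor, had its 7 class means between 6.36 and 24.7 CPM. Its mean level was 24.7 ± 5.23 CPM in NK cells, 24.5 ± 11.8 in other T cells, 24.1 ± 6.96 in CD8 T cells and 22.2 ± 16.7 in B cells, and 11.7 ± 3.59 in TAM and 6.36 ± 4.22 in classical monocytes (SD, n = 8). In microglia it ran from 4.35 through a median of 12.2 to 21.3 CPM. No neighbouring pair passed the test, the smallest adjusted p being 0.0833 for TAM above classical monocytes in 7 of 8 mice (exact sign-flip test). After thinning to 3000 UMIs, 4.11% of WT and 2.92% of CaMKK2 KO TAM had a Tfrc UMI, against 5.11% and 7.89% of B cells; without thinning 298 of 1738 and 184 of 1175 of the deeper TAM had one, and 9 of 169 and 21 of 191 of the shallower B cells. The highest level of any class lay outside the order, in pDC, type I interferon-producing dendritic cells: 50 of 70 pDC held 159 UMIs, pooled at 195 CPM (exact Poisson 95% interval 166 to 227, counting error only), with 106 to 260 CPM in the 7 mice that had such cells. Regulatory T cells had 41.5 ± 17.9 CPM in 7 mice.

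Slc11a1, the phagosomal metal transporter, was a myeloid message with similar levels in the main myeloid classes. It lay at 229 ± 54.4 CPM in microglia, 206 ± 23.6 CPM in TAM and 196 ± 65.2 CPM in classical monocytes (SD, n = 8), and neither neighbouring pair was separated (exact adjusted p = 0.727 and 0.65). NK cells followed at 3.65 ± 1.38 CPM, below classical monocytes in 8 of 8 mice (log2 difference 5.40 ± 0.53 SD, exact adjusted p = 0.0469). Non-classical monocytes had the highest class mean, 359 ± 86.6 CPM in 7 mice, a value outside the order. DC2 had 3.68 ± 2.71 CPM in 7 mice, in the range of the lymphoid classes.

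Hmox1, the heme-degrading enzyme, was carried by the same 3 myeloid classes of the order, at 152 ± 50.7 CPM in classical monocytes, 151 ± 60.2 CPM in TAM and 144 ± 135 CPM in microglia (SD, n = 8). These neighbours did not differ beyond their spread (exact adjusted p = 0.966 and 0.514), and which of them was highest changed with the processing. The step from microglia down to CD8 T cells, at 5.38 ± 2.65 CPM, held in 8 of 8 mice (log2 difference 4.14 ± 0.79 SD, exact adjusted p = 0.0469). Non-classical monocytes had 188 ± 111 CPM in 7 mice. Hmox1 was uneven between cells: 1 TAM, of CaMKK2 KO mouse 3, held 322 UMIs, and the 10% of TAM with most of them held 61.4% of the UMIs, against 25.8% for Fth1 and 24.7% for Ftl1.

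Mt1 was highest in TAM, where the mice spread over a wide range. WT mice 1 to 4 had 1351, 786, 494 and 506 CPM, and CaMKK2 KO mice 1 to 4 had 490, 701, 466 and 101 CPM. WT mouse 1 was the highest and CaMKK2 KO mouse 4 the lowest of all 8, and the genotypes overlapped. The TAM mean of 612 ± 360 CPM was above that of microglia, 424 ± 289 CPM, in 8 of 8 mice (log2 difference 0.56 ± 0.59 SD, exact sign-flip test, adjusted p = 0.0469). Classical monocytes (343 ± 566 CPM), CD8 T cells (208 ± 132), NK cells (92.7 ± 84.6), other T cells (74.4 ± 74.5) and B cells (18.4 ± 12.6) followed, and none of these neighbouring pairs passed the test. The monocyte mean rested on WT mouse 1, which had 1725 CPM in 46 cells against 346 CPM in the next mouse.

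Mt2 was highest in TAM at 59.6 ± 53.0 CPM and in CD8 T cells at 56.5 ± 40.9 CPM, a pair that was not separated (TAM higher in 3 of 8 mice, exact adjusted p = 0.942). No neighbouring pair passed the test for Mt2, and no Mt2 UMI was seen in the 360 B cells, which allows up to 1.65 CPM from counting alone. Among WT mice, mouse 1 was highest for Mt1 in 5 of the 7 classes and for Mt2 in 5. Among CaMKK2 KO mice, mouse 4 was lowest for Mt1 in 6 and for Mt2 in 5 classes. Over all cells of a mouse Mt1 was at 1178, 484, 276 and 328 CPM in WT mice 1 to 4, where the median mitochondrial share of a cell's UMIs was 3.21, 2.76, 2.58 and 2.63% and the median depth 14376, 12606, 12156 and 13275 UMIs. In CaMKK2 KO mice 1 to 4 it was at 287, 275, 311 and 55.3 CPM, beside mitochondrial shares of 2.71, 2.42, 3.11 and 2.12% and depths of 12730, 11418, 12816 and 10284 UMIs. The mitochondrial share thus put the mice of each genotype in the same order as Mt1 did, WT mouse 1 had the deepest cells and CaMKK2 KO mouse 4 the shallowest, and the part of these in the Mt1 and Mt2 levels was not tested. The mouse is the unit that was hashed, stained and sorted, so a difference between animals and one between preparations cannot be told apart.

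**Figure D2:**
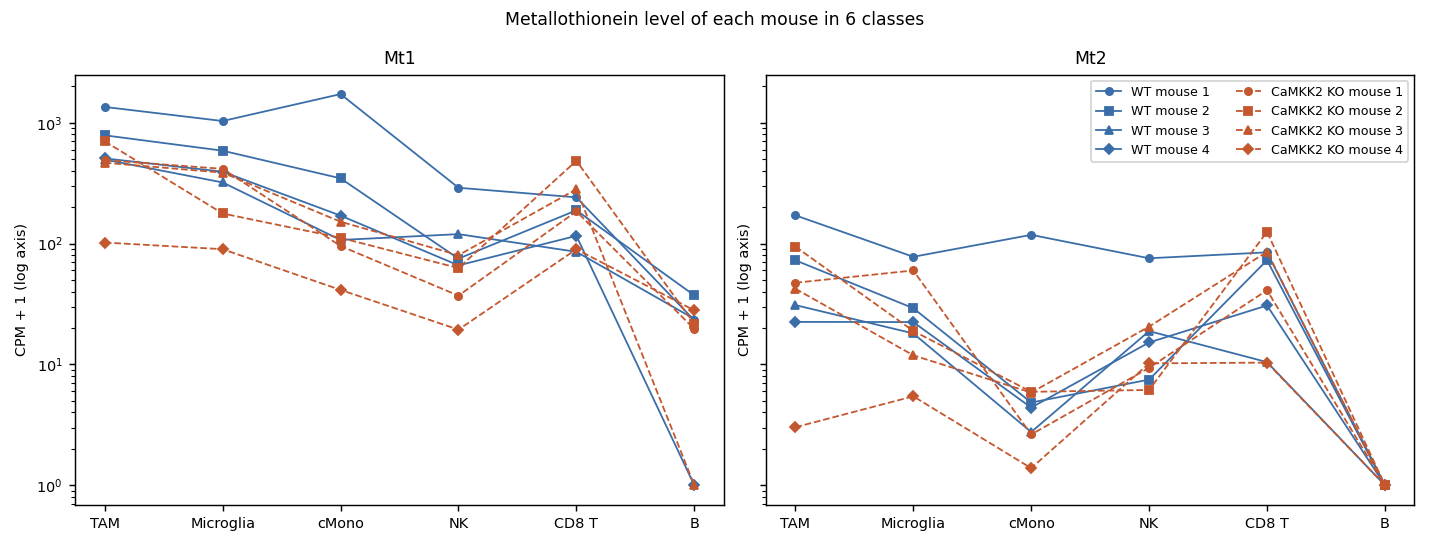
CPM + 1 on a log axis for Mt1 (left) and Mt2 (right) in 6 classes (cMono, classical monocytes), with 1 line per mouse, solid blue for WT and dashed orange for CaMKK2 KO. WT mouse 1 runs along the top in the myeloid classes and NK cells, CaMKK2 KO mouse 4 is the lowest in these same classes for Mt1, and Mt2 is at 0 CPM in B cells of all mice.

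Within a class the metallothionein UMIs were held by few cells. The 10% of cells with most Mt1 UMIs held 51.5% of them in TAM, 44.1% in microglia, 77.1% in classical monocytes, 74.6% in CD8 T cells and 92.0% in NK cells. For Mt2 the share was 86.7% in TAM and 85.2% in CD8 T cells. The share also moves with the counts per cell: where under 10% of cells held a UMI it is 100% by construction, as for Mt2 and Tfrc in classical monocytes (Mt2 at 0 in 97.5% of cells), Mt2 in NK cells (at 0 in 95.5%) and Slc40a1 in TAM (at 0 in 98.1%). Cells with Mt2 were usually cells with Mt1. After thinning to 3000 UMIs, 91.5% of TAM with an Mt2 UMI had an Mt1 UMI, against 54.2% of TAM without one, and in CD8 T cells the shares were 58.7% and 18.2%. These shares pool the cells of all mice, which differed in both genes together, and the link within single mice was not tested. The cells with Mt2 were deeper before thinning, with median depths of 21443 against 17034 UMIs in TAM and 14438 against 11299 in CD8 T cells. As a background for such shares, 7.30% of WT and 4.74% of CaMKK2 KO B cells had an Mt1 UMI after thinning; no empty droplets were among the files used here, so the free RNA was not measured.

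**Figure D3:**
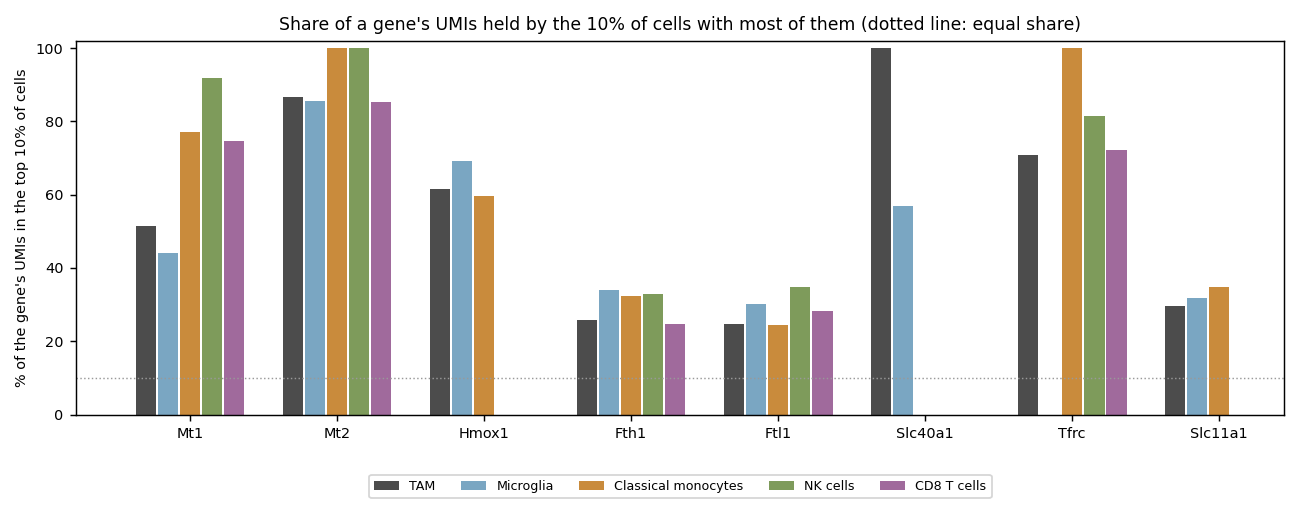
Share (%) of a gene's UMIs held by the 10% of cells with most of them, for each gene in 5 classes; a bar is absent where the gene had under 100 UMIs in the class, and the dotted line marks an equal share of 10%. Fth1, Ftl1 and Slc11a1 bars lie between 24.3% and 34.8%, and Mt1, Mt2, Hmox1, Slc40a1 and Tfrc bars between 44.1% and 100%, the value a gene takes by construction when under 10% of cells hold it.

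The genes whose level followed each member most closely were ranked over 79 class-by-mouse sums from 14 classes, among 8926 genes, by Pearson's r of log2(CPM + 1). These sums share mice, channels and depth, so r is a description. Fth1 was nearest to Atp6v0c (r = 0.97), a subunit of the proton pump of lysosomes, and Ftl1 to Lamp1 (0.95), a protein of the lysosomal membrane. Slc40a1 was nearest to Nav3 (0.94) and Slc1a3 (0.92). Hmox1 and Slc11a1 had the same nearest gene, Fgd4 (0.89 and 0.92). Tfrc was nearest to Dnajc9 (0.84), and Mt1 to Gsto1 (0.75), with Mt2 also among its nearest 3 (0.69). For Mt2 the order was Mt1 (0.69), 0610012G03Rik (0.67) and Rhoc (0.66).

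The second question was whether the levels differed between CaMKK2 KO and WT mice. UMIs were summed per mouse in each of 5 classes and tested with edgeR's quasi-likelihood test over all genes that reached 200 UMIs there, with Benjamini-Hochberg adjustment over all of them. No member had an adjusted p under 0.05 in any class. In TAM 0 of 7 members tested passed, where 2.11% of all genes did, and 1 passed an unadjusted 0.05, where 20.3% did. The counts in microglia were 0 and 1 of 7, with 1.09% and 16.2% of all genes. In classical monocytes they were 0 and 4 of 5, with 1.34% and 15.8%. In NK cells they were 0 and 1 of 5, with 3.93% and 20.4%, and in CD8 T cells 0 and 1 of 5, with 1.55% and 17.2%. DESeq2 called 1 member, Hmox1 in microglia, and none in the other 4 classes. The median log2 difference of the members tested was -0.27 in TAM, -0.23 in microglia, -0.58 in classical monocytes, -0.24 in NK cells and 0.54 in CD8 T cells, beside medians over all genes of -0.08, -0.11, -0.01, 0.07 and 0.06. TMM scaling moved the median of all genes in microglia by over 0.1, to -0.003, so the microglial values below are to be read against -0.11. In all of these, fewer cells of a kind within a class and less RNA per cell cannot be told apart.

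The gated TAM and classical monocytes of the 2 genotypes lay mostly in different unsupervised clusters; genotype and channel cannot be told apart in this split, and its part in the comparisons was not tested. Clusters 0 and 2 held 34.4% and 32.2% of WT TAM but 1.36% each of CaMKK2 KO TAM, whereas clusters 15 and 23 held 30.6% and 26.1% of CaMKK2 KO TAM but 0.690% and 1.04% of WT TAM. In single CaMKK2 KO mice cluster 23 held from 9.64% to 62.8% of TAM. Of classical monocytes, clusters 1 and 2 held 57.8% and 25.8% in WT mice against 0.531% and 0.465% in CaMKK2 KO mice, and clusters 24, 23 and 15 held 36.5%, 33.9% and 16.1% in CaMKK2 KO mice against 0.668% each in WT mice. By their markers clusters 0, 2 and 15 were named TAM and 1, 23 and 24 classical monocytes. Microglia, NK cells and CD8 T cells shared their main cluster, which held 88.2% and 88.7% of microglia, 73.2% and 76.4% of NK cells and 79.3% and 76.8% of CD8 T cells in WT and CaMKK2 KO mice. These are pooled shares, and single mice differed. The main cluster held 68.6% to 97.2% of microglia of a WT mouse and 86.8% to 95.5% of a CaMKK2 KO mouse. For NK cells the ranges were 72.1% to 74.7% and 56.9% to 90.7%, and for CD8 T cells 27.8% to 87.8% and 47.4% to 83.1%. The TAM cluster with most cells of both genotypes, cluster 8, held 14.8% of WT and 28.7% of CaMKK2 KO TAM, with at least 10 cells in 7 mice (CaMKK2 KO mouse 2 had 8). It held 15 of 543, 42 of 336, 73 of 340 and 127 of 519 TAM in WT mice 1 to 4. In CaMKK2 KO mice 1 to 4 it held 152 of 366, 8 of 265, 166 of 415 and 11 of 129. As a description, Ftl1 in the TAM of cluster 8 was at 5028, 5943, 5784 and 5813 CPM in WT mice 1 to 4 against 4973, 5167 and 4548 CPM in CaMKK2 KO mice 1, 3 and 4, and Fth1 at 9169, 12828, 13439 and 12485 CPM against 11754, 13607 and 13953 CPM. Mt1 was at 675, 665, 310 and 378 CPM there against 392, 426 and 212 CPM. Hmox1 was at 77.3, 72.4, 78.4 and 69.4 CPM against 56.3, 58.7 and 61.9 CPM. Slc11a1 was at 191, 248, 245 and 234 CPM against 257, 248 and 299 CPM.

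**Figure D4:**
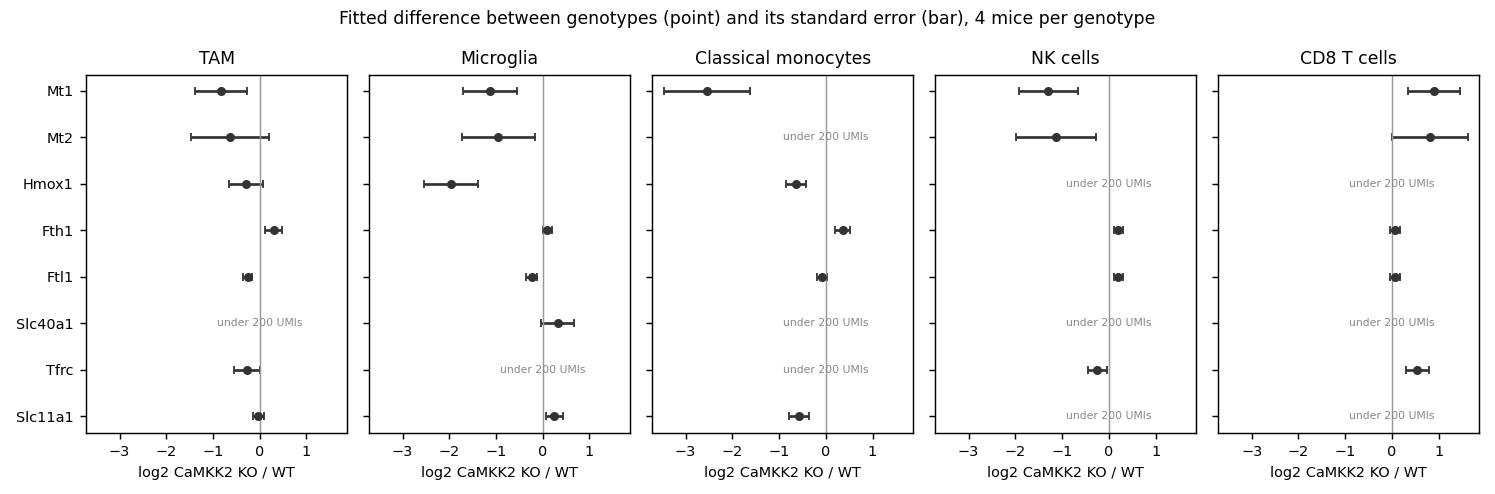
Fitted log2 difference, CaMKK2 KO over WT (point), and its standard error (bar) for the 8 genes in 5 classes, 4 mice per genotype; genes under 200 UMIs in a class were not tested. No point passed the test at an adjusted p of 0.05; Mt1 and Mt2 points, where tested, lie right of 0 in CD8 T cells and left of 0 in the other classes.

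The fitted differences of the ferritin heavy and light chains had opposite signs in TAM, and neither passed. Fth1 was at 13864, 16280, 16214 and 14642 CPM in the TAM of WT mice 1 to 4 and at 13460, 24458, 15418 and 21880 CPM in those of CaMKK2 KO mice 1 to 4. CaMKK2 KO mice 2 and 4 were above all WT mice, and CaMKK2 KO mouse 1 was below them (log2 difference 0.30, SE 0.18, edgeR adjusted p = 0.368). CaMKK2 KO mice 2 and 4 also had the fewest TAM in cluster 8, 8 of 265 and 11 of 129 cells. By share WT mouse 1 had the least of all 8 mice, 15 of 543 TAM (2.76%), at an Fth1 level of 13864 CPM. The part of cluster 8 in the Fth1 levels was not tested. Ftl1 was at 6463, 6351, 6012 and 6273 CPM in WT mice against 4981, 6070, 5178 and 4828 CPM in CaMKK2 KO TAM. The groups overlapped through CaMKK2 KO mouse 2 alone (log2 difference -0.25, SE 0.10, edgeR adjusted p = 0.188). In classical monocytes Fth1 was at 11597, 12074, 11725 and 12333 CPM in WT mice against 9948, 15421, 17890 and 18145 CPM in CaMKK2 KO mice. There 3 CaMKK2 KO mice were above every WT mouse and 1 was below (log2 difference 0.36, SE 0.16, edgeR adjusted p = 0.312). Leaving out CaMKK2 KO mouse 1 gave an adjusted p of 0.0239 at a log2 difference of 0.52, and over all alternatives it ran from 0.0178 to 0.591.

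In NK cells the log2 differences of both ferritin chains were positive, beside a median of 0.07 over all genes. Fth1 was at 1068 to 1217 CPM in the 4 WT mice and 1281 to 1413 CPM in the 4 CaMKK2 KO mice. Ftl1 was at 556, 610, 643 and 593 CPM in WT mice against 652, 783, 643 and 694 CPM in CaMKK2 KO NK cells, with the highest WT and the lowest CaMKK2 KO mouse almost level. Neither difference passed the adjustment (log2 0.21, SE 0.10, edgeR adjusted p = 0.235 for Fth1, and log2 0.21, SE 0.10, adjusted p = 0.249 for Ftl1). In CD8 T cells and microglia the log2 differences of Fth1 were 0.07 and 0.10, and those of Ftl1 0.07 and -0.23, with edgeR adjusted p of 0.354 and above; in CD8 T cells both turned to -0.01 or nearer 0 under TMM scaling.

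Hmox1 in microglia showed the lowest adjusted p of any member. It was at 307, 402, 136 and 69.5 CPM in WT mice 1 to 4 and at 69.8, 46.0, 72.9 and 48.9 CPM in CaMKK2 KO mice 1 to 4. Microglia of 3 WT mice were above all CaMKK2 KO mice, and WT mouse 4 lay inside the CaMKK2 KO range. The group means were 229 ± 153 and 59.4 ± 13.9 CPM (SD, n = 4 each), and the log2 difference was -1.97 (SE 0.57, edgeR adjusted p = 0.175). DESeq2 gave -1.84 with an adjusted p of 0.0441, and without WT mouse 4 edgeR gave -2.24 with 0.0179; over all alternatives the adjusted p ran from 0.0179 to 0.346. The microglia numbered 142, 110, 35 and 43 in the WT mice and 34, 22, 57 and 38 in the CaMKK2 KO mice. A single cell held 253 of the 642 Hmox1 UMIs of the microglia of WT mouse 2, whose level was 246 CPM without it, and the 10% of microglia with most Hmox1 held 69.2% of the UMIs. After thinning to 3000 UMIs, 33.4% of WT and 16.7% of CaMKK2 KO microglia had an Hmox1 UMI (67.9% and 42.4% before), against 0.730% and 1.58% of B cells. These shares pool cells over mice, and WT mice 1 and 2, with the highest levels, gave 142 and 110 of the 330 WT microglia.

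In classical monocytes Hmox1 was at 207, 240, 163 and 132 CPM in WT mice against 85.8, 114, 154 and 123 CPM in CaMKK2 KO mice. The WT mean of 186 ± 47.5 CPM was above the CaMKK2 KO mean of 119 ± 28.1 CPM with overlap of the groups (log2 difference -0.64, SE 0.22, edgeR adjusted p = 0.183). There too 1 cell held 258 of the 626 UMIs of WT mouse 2, whose level was 142 CPM without it, within the CaMKK2 KO range. In TAM the log2 difference was -0.29 (SE 0.37, adjusted p = 0.687). NK cells held 50 Hmox1 UMIs in all, too few for the test. Their levels were 3.15 to 7.02 CPM in WT mice against 1.29 to 3.07 CPM in CaMKK2 KO mice. These rested on 6 to 13 UMIs in a WT mouse and 2 to 10 in a CaMKK2 KO mouse. Of the 13 UMIs in WT mouse 2, 5 came from 1 cell.

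None of the members Slc11a1, Tfrc and Slc40a1 passed the test in any class. Slc11a1 in classical monocytes was at 189, 322, 266 and 161 CPM in WT mice against 195, 160, 144 and 134 CPM in CaMKK2 KO mice, with overlap (log2 difference -0.58, SE 0.22, edgeR adjusted p = 0.221). In TAM its log2 difference was -0.03 (SE 0.12, adjusted p = 0.927) with a sign that changed under TMM scaling, and in microglia 0.25 (SE 0.18, adjusted p = 0.551). When classes were taken from unsupervised clusters, several of which held cells of nearly 1 genotype, the edgeR adjusted p in classical monocytes fell to 0.0108 for Hmox1, 0.0178 for Fth1 and 0.0384 for Slc11a1, with log2 differences of -1.13, 0.81 and -0.65. Tfrc in CD8 T cells was at 26.1, 21.5, 13.3 and 19.6 CPM in WT mice against 21.4, 36.2, 24.3 and 30.4 CPM in CaMKK2 KO mice. The groups overlapped (log2 difference 0.54, SE 0.24, edgeR adjusted p = 0.257), and the WT mouse 1 value came from 18 cells. In TAM and NK cells the Tfrc log2 differences were -0.27 and -0.24 (adjusted p = 0.624 and 0.524). Slc40a1 could be tested in microglia alone, where the means were 30.1 ± 15.1 CPM in WT mice against 37.9 ± 14.9 CPM in CaMKK2 KO mice (SD, n = 4 each; log2 difference 0.32, SE 0.35, edgeR adjusted p = 0.7).

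Mt1 in classical monocytes had the largest fitted difference of the members. It was at 1725, 346, 106 and 169 CPM in WT mice against 94.5, 111, 151 and 40.3 CPM in CaMKK2 KO mice. WT mice 1, 2 and 4 were above every CaMKK2 KO mouse and WT mouse 3 was inside their range (log2 difference -2.55, SE 0.91, edgeR adjusted p = 0.227). Without WT mouse 1 the log2 difference was -1.08 (edgeR adjusted p = 0.308). Lcn2, a gene of the wider iron list that was also among the leading genes of the cells gated as neutrophils, was at 711, 134, 22.6 and 9.60 CPM in the same WT monocytes against 8.14, 3.23, 10.2 and 12.9 CPM in CaMKK2 KO mice (log2 difference -4.58, SE 1.39, edgeR adjusted p = 0.165). The 11 neutrophil markers summed to 2792, 1088, 793 and 613 CPM in these WT monocytes against 825, 1339, 815 and 1476 CPM in CaMKK2 KO mice. S100a8 made up 1790 CPM of the sum in WT mouse 1, against 12.8 to 154 CPM in the other 7 mice. S100a9, Cxcr2, Mmp8 and Trem1 were also highest in WT mouse 1, at 14.4, 19.8, 367 and 193 CPM. Csf3r, Clec4d, Il1rn and Hdc were not, and Retnlg and Mmp9 were at 0 in it, as in most other mice. Il1rn made up 965 and 1121 CPM of the sum in CaMKK2 KO mice 2 and 4, against 37.8 CPM in WT mouse 1. The part of such cells or RNA in the Mt1 value was not tested. Mt2 had 138 UMIs in classical monocytes, 65 of them from WT mouse 1, and was not tested.

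In the other myeloid class tests the Mt1 log2 difference was -0.83 in TAM (SE 0.56, adjusted p = 0.43; -0.43 without WT mouse 1) and -1.13 in microglia (SE 0.58, adjusted p = 0.412; -0.69 without WT mouse 1). In NK cells it was -1.30 (SE 0.63, adjusted p = 0.317; -0.66 without WT mouse 1), from 289, 74.0, 119 and 65.0 CPM in WT mice against 36.1, 61.7, 79.1 and 18.4 CPM in CaMKK2 KO mice. Of the 226 Mt1 UMIs in NK cells of WT mouse 3, 99 came from 1 cell, and its level was 68.5 CPM without that cell. In CD8 T cells the Mt1 log2 difference was 0.90 (SE 0.56, adjusted p = 0.489; 1.05 without WT mouse 1), from 240, 187, 84.5 and 115 CPM in WT mice against 184, 483, 281 and 88.8 CPM in CaMKK2 KO mice. Mt2 had log2 differences of -0.63 in TAM, -0.95 in microglia, -1.13 in NK cells and 0.82 in CD8 T cells, with edgeR adjusted p of 0.534 and above. In TAM the Mt2 value turned to 0.23 without WT mouse 1, and in CD8 T cells it was 0.95. WT mouse 1 held 158 of the 269 Mt2 UMIs in microglia and 94 of the 280 in NK cells, so without it Mt2 was under the 200 UMIs needed for a test in both. Its NK level was 74.5, 6.48, 17.9 and 14.2 CPM in WT mice against 8.37, 5.14, 19.5 and 9.20 CPM in CaMKK2 KO mice, with only WT mouse 1 above their range. The top of that range rested on 1 cell, which held 47 of the 80 Mt2 UMIs in NK cells of CaMKK2 KO mouse 3. Without this cell that mouse was at 8.13 CPM. No cell was left out of the WT mice, where 35 of 553 NK cells held an Mt2 UMI, so the genotypes were not compared without it.

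The third question was whether the difference between genotypes in TAM was the same as in other classes, tested as the interaction of class and genotype with the mouse as a block (edgeR quasi-likelihood test, Benjamini-Hochberg over all genes). All of these comparisons share the TAM of the same mice. Of 21 member and class pairs, 2 passed. None of 6 pairs passed in microglia, where 0.29% of all genes did, none of 5 in classical monocytes (0.215% of genes), 1 of 5 in NK cells (1.96%) and 1 of 5 in CD8 T cells (0.558%). For Ftl1 the log2 difference in NK cells exceeded that in TAM by 0.46 (SE 0.08, edgeR adjusted p = 0.00594). In TAM 3 of 4 CaMKK2 KO mice were below all WT mice. In NK cells the lowest CaMKK2 KO mouse, at 643.3 CPM, was almost level with the highest WT mouse, at 642.8 CPM. The Ftl1 level in TAM was 9.35 to 11.6 times that in NK cells of the same WT mouse and 6.95 to 8.05 times in the CaMKK2 KO mice. Under TMM scaling the value was 0.31 with an adjusted p of 0.0964, and under DESeq2 0.32 with 0.0977; over all alternatives the adjusted p ran from 0.000133 to 0.0977. For Mt1 the log2 difference in CD8 T cells exceeded that in TAM by 1.51 (SE 0.22, adjusted p = 0.0135). Without WT mouse 3 or WT mouse 4 the edgeR adjusted p was 0.0522 and 0.0525, at log2 values of 1.43 and 1.57. With doublets kept it was 0.0589 at 1.63, and without WT mouse 1 the pair passed. Over all alternatives the adjusted p ran from 1.38e-15 to 0.0589. The Mt1 level in TAM was 4.19 to 5.85 times that in CD8 T cells of the same WT mouse and 1.14 to 2.67 times in the CaMKK2 KO mice. In CaMKK2 KO mouse 2, 1 CD8 T cell held 124 of the 534 Mt1 UMIs, and the level was 389 CPM without it against 483 CPM with it. In CaMKK2 KO mouse 1, 1 TAM held 435 of the 3580 Mt1 UMIs. WT mouse 1 had 18 CD8 T cells with 46 Mt1 UMIs.

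Around the members, 62 other genes of iron, heme, oxidative stress, zinc and copper handling were followed in 7 groups by role. In TAM 49 could be tested and 1, Hebp1, passed upward, where 2.11% of all genes passed in either direction; 11 passed an unadjusted 0.05, where 20.3% did, and the list's median log2 difference was -0.08, beside -0.08 for all genes. No gene passed in TAM among 8 of uptake and transport, 7 of storage, chaperones and iron-sulfur clusters, 1 of export and systemic signals, 3 of iron sensing, 8 of the oxidative stress response and 13 of zinc and copper handling. In microglia 2 of 34 passed, with Hebp1 higher and Slc39a14 lower in CaMKK2 KO mice, beside 1.09% of all genes. In classical monocytes 2 of 46 passed, with Hebp1 and Blvrb higher, beside 1.34%. In NK cells 0 of 30 and in CD8 T cells 0 of 25 passed by edgeR, beside 3.93% and 1.55% of all genes, with 2 and 3 at an unadjusted p under 0.05, where 20.4% and 17.2% of all genes were.

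Hebp1, a heme-binding protein of the cytosol, passed in all 3 myeloid classes, where 2.11%, 1.09% and 1.34% of all genes did. In TAM it was at 91.7, 61.8, 54.5 and 61.5 CPM in WT mice against 214, 228, 276 and 192 CPM in CaMKK2 KO mice (log2 difference 1.76, SE 0.17, edgeR adjusted p = 0.000879). In microglia the means were 123 ± 47.3 and 346 ± 58.4 CPM (SD, n = 4 each; log2 difference 1.45, SE 0.24, edgeR adjusted p = 0.0107). In classical monocytes it was at 43.2, 6.90, 8.02 and 13.6 CPM in WT mice against 169, 155, 235 and 155 CPM in CaMKK2 KO mice (log2 difference 3.76, SE 0.48, edgeR adjusted p = 0.00691). Hebp1 was thus higher in all 4 CaMKK2 KO mice in each of these classes.

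Blvrb, biliverdin reductase B, was at 45.0, 75.9, 65.2 and 56.5 CPM in WT mice against 105, 103, 115 and 105 CPM in CaMKK2 KO classical monocytes (log2 difference 0.78, SE 0.15, edgeR adjusted p = 0.0327). Its log2 difference was 0.10 in TAM and 0.03 in microglia, neither past the test (adjusted p = 0.671 and 0.952). Slc39a14, a zinc transporter that also carries iron not bound to transferrin, was at 68.0, 46.3, 53.3 and 32.1 CPM in WT mice against 26.2, 15.3, 27.2 and 17.8 CPM in CaMKK2 KO microglia (log2 difference -1.19, SE 0.27, edgeR adjusted p = 0.046). In TAM it was at 16.3 ± 2.33 and 17.2 ± 4.19 CPM (log2 difference 0.11, adjusted p = 0.771). In classical monocytes it was at 43.2, 45.2, 29.6 and 19.2 CPM in WT mice against 18.5, 21.3, 20.3 and 7.88 CPM in CaMKK2 KO mice (log2 difference -0.99, SE 0.35, edgeR adjusted p = 0.198).

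**Figure D5:**
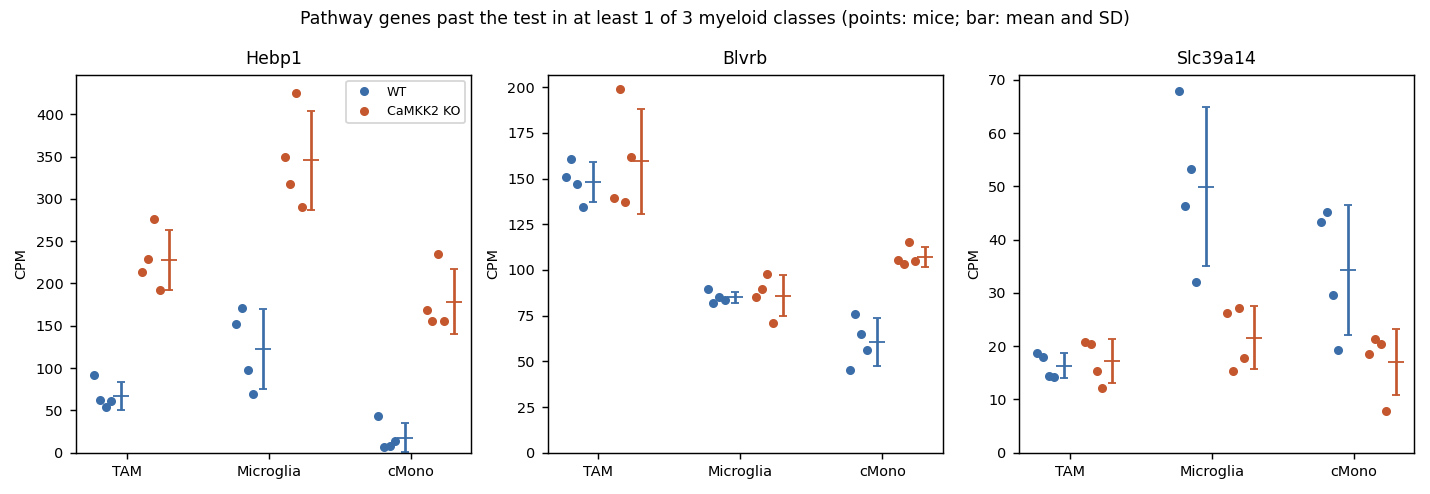
CPM of Hebp1, Blvrb and Slc39a14 in TAM, microglia and classical monocytes (cMono), with 1 point per mouse, WT in blue and CaMKK2 KO in orange, and bars for the mean and SD of 4 mice. Hebp1 points of the genotypes are apart in all 3 classes, Blvrb points in classical monocytes, and Slc39a14 points in microglia.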

How the data were processed

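The authors deposited raw UMI counts per gene and hashtag counts per barcode, made with bcl2fastq 2.20, Cell Ranger 4.0.0 and STAR 2.7.5c on mm10, 1 library per genotype. Here barcodes (6689 WT, 7271 CaMKK2 KO) were demultiplexed with HTODemux (Seurat 5.3.0, quantile 0.99; 5974 and 6696 singlets). Hashtag doublets (667 and 508) and negatives were dropped, as were 593 and 836 cells outlying by 3 median absolute deviations (scuttle 1.12.0) and 216 and 167 further doublets by Scrublet (scanpy 1.11.5). Cells were gated by marker scores over all cells, and 508 WT and 590 CaMKK2 KO cells stayed unassigned. Counts were summed per hashtagged mouse and class and divided by the class total (CPM). A mouse here is 1 hashtag, the replicate of every test.

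Genotypes were compared with edgeR 4.0.16 (glmQLFit, glmQLFTest) over genes that reached 200 UMIs there, with the class total as library size and Benjamini-Hochberg adjustment over all of them. Alternatives were TMM scaling, DESeq2 1.42.0, other filters, leaving out each mouse, outlying cells or doublets kept, a stricter gate, classes from clusters, cells weighted equally, and Ftl1 with Ftl1-ps1 summed; pooling TAM with classical monocytes was added after seeing the data. The code was tested on simulated data. The level order used log2(CPM + 1). Shares of cells were compared after thinning to 3000 UMIs, leaving out shallower cells; 137 of 169 WT and 190 of 191 CaMKK2 KO B cells and 2890 of 2913 TAM remained. Intervals and floors (3 counts) cover counting error only.

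The members, gene lists and markers were chosen with earlier results of these data known. Every member is named. Of the 62 pathway genes, those with an adjusted p under 0.05 in TAM, microglia or classical monocytes are named, at most 10 per class, and for likeness the nearest 3 genes by Pearson's r were eligible, some of which are not reported here. Any other gene was chosen after its values were seen. No promoter entry was used for Hmox1 and Slc40a1.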

Additional observations from a re-analysis of the deposited data

Results flagged for a closer look

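Among 84 groups of 4 mice, for genes that reached 50 UMIs in a class, 6 had a mouse far from the other 3 by Dixon's ratio, the gap to the nearest mouse over the group's range, at a critical value of 0.829. Chance alone flags about 5% of groups. Of the 6, 5 were WT mouse 1. In classical monocytes WT mouse 1 had 1725 CPM of Mt1 against 346 CPM in the next mouse (ratio 0.852) and 117 against 3.83 CPM of Mt2 (ratio 0.982). In NK cells it had 74.5 against 17.9 CPM of Mt2 (ratio 0.833) and 33.3 against 26.1 CPM of Tfrc (ratio 0.892). In other T cells it had 51.9 against 21.9 CPM of Tfrc (ratio 0.872), a value of 5 UMIs. CaMKK2 KO mouse 2 had 5.01 against 0.821 CPM of Slc40a1 in TAM (ratio 0.836), from 24 UMIs.

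The differences between the genotypes in separate classes were unlike by a test of the difference itself for Ftl1, whose log2 difference in NK cells exceeded that in TAM by 0.46, and for Mt1, whose log2 difference in CD8 T cells exceeded that in TAM by 1.51 (edgeR quasi-likelihood interaction test, adjusted p = 0.00594 and 0.0135).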

How the results depend on the processing

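No member was called in TAM, NK cells or CD8 T cells under any alternative run. In microglia DESeq2 called 1 member, and leaving out 1 mouse gave 0 to 1 (Hmox1 without WT mouse 4). In classical monocytes classes from clusters gave 3, and leaving out 1 mouse 0 to 1 (Fth1 without CaMKK2 KO mouse 1). The count of pathway genes called in TAM, 1 as reported, was 2 under DESeq2, with at least 50 UMIs, a stricter gate, classes from clusters, cells weighted equally or TAM and classical monocytes pooled, and 3 without a filter or with outlying cells kept; leaving out 1 mouse gave 1 to 2, with 2 without WT mouse 1, CaMKK2 KO mouse 2 or CaMKK2 KO mouse 3. Hebp1 was among them every time, and Ncoa4, at a log2 difference of -0.55 and an adjusted p of 0.0534 as reported, joined it in 6 of these alternatives. The 2 member and class pairs with an interaction became 1 under TMM scaling, DESeq2 or with doublets kept, 4 with classes from clusters and 9 without a filter on low counts; leaving out 1 mouse gave 1 to 2, with 1 without WT mouse 3 or WT mouse 4. The cause of these changes was not tested.

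Signs turned for differences near 0: Slc11a1 in TAM (0.0609 under TMM scaling, 0.0575 under DESeq2, 0.0058 with a stricter gate, -0.0982 to 0.0507 leaving out 1 mouse), Ftl1 in classical monocytes with classes from clusters (0.0117), and in CD8 T cells Fth1 (-0.0078) and Ftl1 (-0.0036) under TMM scaling and Ftl1 with cells weighted equally (-0.0555). Mt2 in TAM ran from -1.17 to 0.23 leaving out 1 mouse, the latter without WT mouse 1. The class with the highest mean varied for Tfrc, Hmox1 (TAM or microglia in place of classical monocytes) and Mt2 (CD8 T cells in place of TAM), and for no other member. Of the other single values, 531 kept direction and side of the threshold. No paired analysis was possible because each mouse has 1 genotype and the hashtag numbers do not tie a WT mouse to a CaMKK2 KO mouse. Few cells limit microglia (22 in CaMKK2 KO mouse 2) and CD8 T cells (18 in WT mouse 1).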
